A study of Mus musculus with 16 samples.

Results

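The 10 genes described here encode transcription factors and regulators of the immediate early and stress response: Fos, Fosb, Jun, Junb, Jund, Egr1, Atf3, Ier2, Ier3 and Myc. They were taken by Ensembl identifier from a table of 40472 genes measured in whole kidney, and all 10 were in the table. The libraries were prepared from poly(A)-selected RNA of kidneys of male C57BL/6 mice aged 12 weeks. The 4 groups of 4 libraries were kidneys after ischemia reperfusion with PJ34 (IRP), kidneys after ischemia reperfusion with vehicle (IRV), normal kidneys with PJ34 (NP) and normal kidneys with vehicle (NV). PJ34 inhibits the poly(ADP-ribose) polymerases, enzymes that act at damaged DNA, and in ischemia reperfusion the blood supply of the kidney is interrupted and then restored. The labels name no transgene or allele, and they give neither the dose of PJ34 nor the time between surgery and collection. They number the replicates without saying that each came from its own animal, and the p-values therefore reflect only how far these libraries varied, which may be partly technical. In whole tissue, fewer cells of a type and less RNA per cell cannot be told apart.

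Immediate early genes are transcribed within minutes of a stimulus, before any new protein is needed, and their transcripts are short-lived. Fos and Jun family proteins pair through leucine zippers to form AP-1, which binds the motif TGACTCA, while Atf3 belongs to the related ATF/CREB family and binds the cyclic AMP response element. Egr1 is a zinc finger factor induced through MAP kinases and serum response factor, Myc drives growth and ribosome production, Ier2 is a small nuclear regulator, and Ier3 is a short-lived protein with a role in cell survival that is induced through NF-kB. In kidney, Egr1, Fos, Jun and Atf3 are known as early responders of tubule cells to ischemia.

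The promoters of 7 members, Fos, Fosb, Jun, Junb, Jund, Atf3 and Ier3, were matched by symbol in a RefSeq table of the build GRCm38.p6, and Egr1, Ier2 and Myc were not. Each window runs 250 bases before to 50 bases after the annotated start. Those of Fos, Junb and Atf3 are shown because they hold the 5 letters TGACG, the core of one arm of the cyclic AMP response element, and that of Ier3 is shown because its transcript was the 1 member lowered in an injury comparison. Capitals mark TGACG on either strand and the TATA box TATAAA.
Fos promoter, chr12:85473640-85473939, plus strand: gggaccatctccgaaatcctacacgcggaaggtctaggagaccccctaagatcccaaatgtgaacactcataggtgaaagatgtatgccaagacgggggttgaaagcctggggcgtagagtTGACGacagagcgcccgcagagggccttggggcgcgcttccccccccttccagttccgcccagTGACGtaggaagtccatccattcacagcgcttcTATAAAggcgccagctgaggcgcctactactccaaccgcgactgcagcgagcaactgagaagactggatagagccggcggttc
Junb promoter, chr8:84978699-84978998, minus strand: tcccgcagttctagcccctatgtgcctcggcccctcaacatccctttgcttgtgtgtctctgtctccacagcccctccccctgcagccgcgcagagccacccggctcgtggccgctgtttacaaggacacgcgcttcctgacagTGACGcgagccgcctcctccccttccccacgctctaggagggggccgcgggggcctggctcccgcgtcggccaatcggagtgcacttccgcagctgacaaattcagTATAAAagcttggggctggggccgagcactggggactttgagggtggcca
Atf3 promoter, chr1:191183284-191183583, minus strand: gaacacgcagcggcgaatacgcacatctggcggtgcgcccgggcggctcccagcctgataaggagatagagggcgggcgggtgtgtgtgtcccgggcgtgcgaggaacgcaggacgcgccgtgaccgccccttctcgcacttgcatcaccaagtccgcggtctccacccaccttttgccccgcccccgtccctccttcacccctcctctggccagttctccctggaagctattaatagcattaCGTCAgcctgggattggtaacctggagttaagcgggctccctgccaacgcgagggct
Ier3 promoter, chr17:35821463-35821762, plus strand: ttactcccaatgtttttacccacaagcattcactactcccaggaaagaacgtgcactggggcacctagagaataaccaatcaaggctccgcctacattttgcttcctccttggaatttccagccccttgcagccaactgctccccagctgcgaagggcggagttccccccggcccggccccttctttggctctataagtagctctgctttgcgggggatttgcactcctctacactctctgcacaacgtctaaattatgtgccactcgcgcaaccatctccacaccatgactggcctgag

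With positions counted from the start site as 0, Fos held TGACG at -129 to -125 and again at -66 to -62, and a TATAAA at -33 to -28. Junb held TGACG at -106 to -102 and TATAAA at 0 to 5. Atf3 held it on its opposite strand, written CGTCA, at -7 to -3, and the Ier3 window held neither motif. On both strands, TGACG was present in 4 of the 7 member promoters (Fos, Fosb, Junb and Atf3) and in 20.8% of 32851 promoters of the same length. TATAAA was present in 2 of 7 and in 13.6% of all promoters. The GC box GGGCGG was present in 5 of 7 (Fos, Fosb, Jun, Atf3 and Ier3) and in 35.7% of all promoters. A match to the NF-kB site was found for Fos, Fosb and Ier3, or 3 of 7, against 8.46% of all promoters, and that of Ier3 at -92 to -83 overlapped its GC box at -96 to -91. The full element TGACGTCA (1.79% of all promoters, and containing TGACG on both strands), the AP-1 site TGACTCA or TGAGTCA (5.2%), the E box CACGTG (7.15%) and the CArG box (1.63%) were in 0 of 7 windows. These letters describe the windows and are not sites shown to be bound.

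Library depth was uneven. The 6 deep libraries, with 4963638 to 6169748 counts, were the whole IRP group together with replicates 3 and 4 of IRV, and the 10 shallow libraries held 973812 to 1659983. Genes of the olfactory and other sensory receptor families made up 216 to 456 CPM of each deep library, against 5706 to 9994 CPM of each shallow library. These families held 1460 genes of the table. All NV and NP libraries were shallow. Whether the low levels of some members there include a signal shared with these receptor genes was not tested. IRP and NP fell wholly into different sets, so injury with PJ34 and library set cannot be told apart there by direct comparison. Markers of the kidney proximal tubule were all detected in every group, with summed levels of 7414 to 15538 CPM in IRP, 8122 to 11687 CPM in IRV, 14809 to 20248 CPM in NP and 16269 to 17131 CPM in NV. Here CPM is the count over the library total in units of 1000000, after scaling of that total by the TMM method, which brings most genes level between libraries.

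After a filter on low counts, 13614 genes were tested, among them 8 of the 10 members. Fos, with 201 counts over all 16 libraries, and Fosb, with 38, did not pass. The filter asked for a level of 6.29 counts per 1000000 of the unscaled total in at least 4 libraries. Jun, Jund and Ier3 reached it in all 16 libraries. The other 5 passed only with the injured libraries, where they were high: among the 8 normal libraries, Egr1 reached the level in 3, Junb in 1, and Atf3, Ier2 and Myc in 0. A count of raised members among the 8 is therefore a description and does not stand for all 10. Tests are edgeR quasi-likelihood tests over all tested genes, with Benjamini-Hochberg adjusted p-values and a threshold of 0.05, and log2 changes carry their standard error (SE). The p-values below come from that fit unless another is named.

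Without PJ34, 7 of the 8 tested members were higher after injury and none was lower. Junb, Jun and Jund, the Jun subunits of AP-1, were 4.86-fold, 3.28-fold and 1.55-fold higher in IRV than in NV, Egr1 was 6.55-fold higher, and Ier2, Myc and Atf3 also rose. Ier3 did not pass the test. Over all tested genes, 15.9% were called higher (2171 of 13614) and 11% lower in IRV than in NV, with a median log2 change of -0.03. Of the 3 members that the normal libraries alone would have passed, Jun and Jund were higher and Ier3 was not called. The libraries of IRV lay wholly above those of NV for 7 of the 10 members (Jun, Junb, Jund, Egr1, Atf3, Ier2 and Myc), and for 15.1% of all tested genes.

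**Figure D1:**
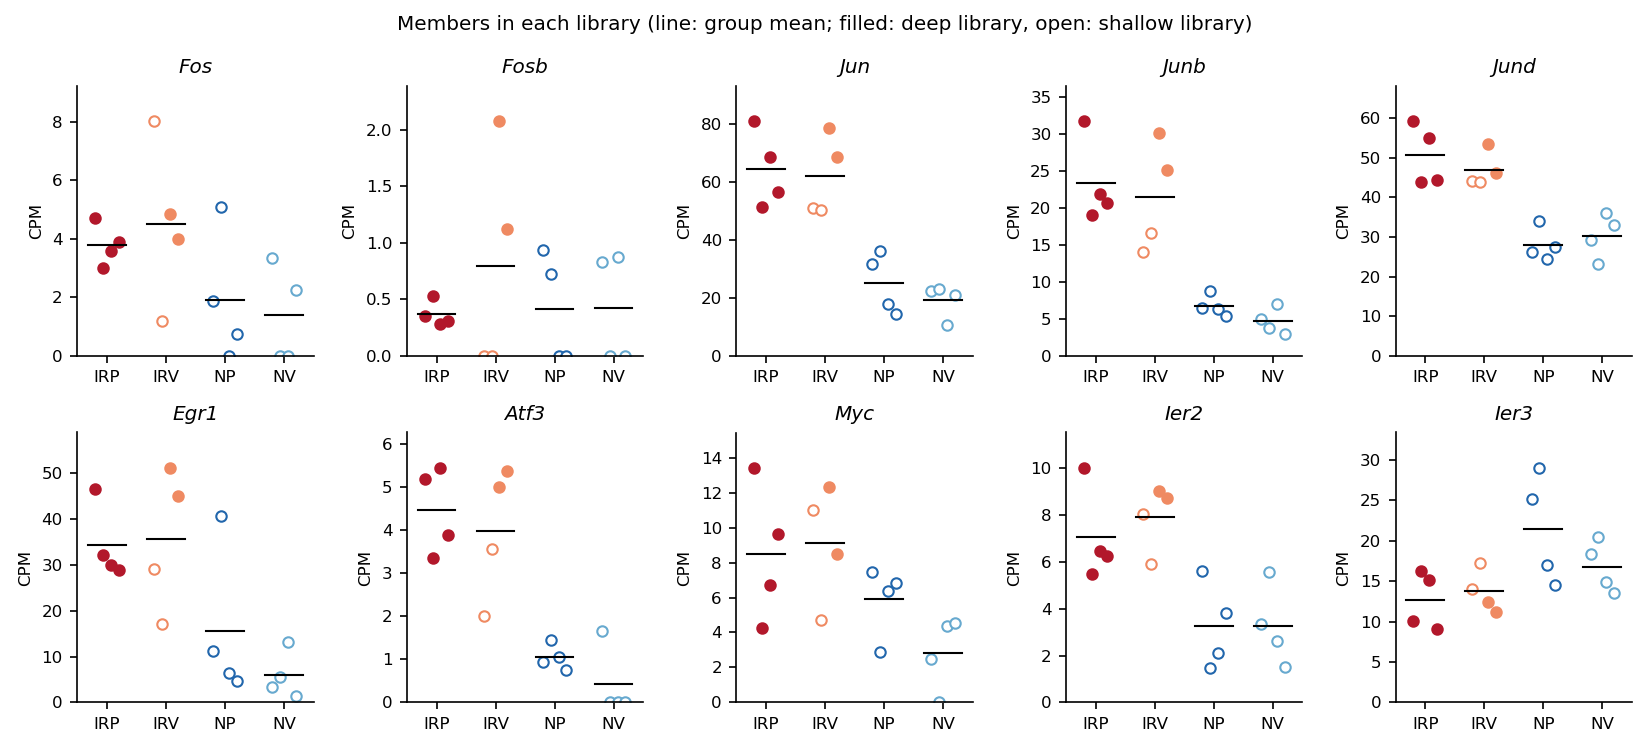
Level of each of the 10 members (CPM on the TMM-scaled total, vertical axis, linear, from 0) in the 16 libraries, with groups IRP, IRV, NP and NV along the horizontal axis. Each point is 1 library, filled for deep and open for shallow libraries, and the line is the group mean; the injured libraries of Jun, Junb, Jund and Atf3 lie above all normal ones, while Ier3 is highest in NP at 29.0 CPM.

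Among the subunits of AP-1, Jun had 51.1, 50.4, 78.5 and 68.4 CPM in the IRV libraries, against 22.5, 23.2, 10.5 and 21.1 CPM in the NV libraries. Every IRV library was above every NV library, and the log2 change of Jun was 1.71 ± 0.27 (SE, adjusted p = 0.000275). Junb had 14.0, 16.6, 30.04 and 25.1 CPM in IRV, against 5.00, 3.71, 7.02 and 3.01 CPM in NV. The lowest IRV library of Junb was well above the highest NV library, and the log2 change was 2.28 ± 0.32 (SE, adjusted p = 8.82e-05). Jund, which is expressed more steadily than its relatives in most tissues, had 44.1, 43.8, 53.4 and 46.1 CPM in IRV, against 29.2, 23.2, 35.98 and 33.1 CPM in NV. Its change was the smallest of the 7 that passed, at 0.64 ± 0.16 on the log2 scale (SE, adjusted p = 0.00592), and the groups still did not overlap.

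Fos, the founding partner of Jun in AP-1, had 17 to 40 counts in each deep library and 0 to 8 in each shallow one. It had 8, 2, 35 and 32 counts in IRV, or 8.02, 1.18, 4.84 and 3.99 CPM, against 4, 0, 0 and 3 counts in NV, or 3.33, 0, 0 and 2.26 CPM. The libraries overlapped, with the highest NV value above the lowest IRV value. In a fit with no filter on low counts (40472 genes), the log2 change of Fos was 1.86 ± 0.78 (SE), which did not pass (adjusted p = 0.136). The scale of that fit differs: the median of all genes was -0.32, against -0.03 with the filter. Jun stood at 2.04 there, against 1.71 with the filter. Fosb had 0, 0, 15 and 9 counts in IRV, or 0, 0, 2.08 and 1.12 CPM, against 1, 0, 1 and 0 counts in NV, or 0.833, 0, 0.878 and 0 CPM. Over the group, 24 counts in IRV against 2 in NV gave a ratio of 3.18 with an exact 95% counting interval of 0.788 to 27.7, and the intervals of counts here cover counting error only.

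Among the other factors, Egr1 had 29.1, 17.2, 51.2 and 45.0 CPM in IRV, against 3.33, 5.57, 13.2 and 1.51 CPM in NV. The groups of Egr1 did not overlap, with IRV replicate 2 the lowest and NV replicate 3 the closest to it, and the log2 change was 2.71 ± 0.60 (SE, adjusted p = 0.00323). Atf3, a repressor and activator induced by many stresses, had 2.00, 3.55, 4.98 and 5.36 CPM in IRV, against 1.67, 0, 0 and 0 CPM in NV. NV held 2 counts of Atf3 in all, both in replicate 1, and IRV held 87, a ratio of 11.5 with a counting interval of 3.09 to 96.6. The fitted log2 change of Atf3 was 3.22 ± 0.81 (SE, adjusted p = 0.00703), and it depends on how the fit handles the 3 libraries at 0: without NV replicate 1, where all counts of NV are 0, the ratio has no upper limit. Myc had 11.02, 4.74, 12.3 and 8.48 CPM in IRV, against 2.50, 0, 4.39 and 4.52 CPM in NV. The lowest IRV library of Myc was barely above the highest NV library, and the log2 change was 1.65 ± 0.56 (SE, adjusted p = 0.0353).

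Ier2 had 8.02, 5.92, 8.998 and 8.73 CPM in IRV, against 3.33, 5.57, 2.63 and 1.51 CPM in NV. Its groups were separated by the narrow gap between IRV replicate 2 and NV replicate 2, and the log2 change was 1.32 ± 0.42 (SE, adjusted p = 0.0282). Ier3 differed from the other members in direction. It had 14.0, 17.2, 12.5 and 11.2 CPM in IRV, against 18.3, 20.4, 14.9 and 13.5 CPM in NV. The libraries overlapped and the log2 change of -0.33 ± 0.27 (SE) did not pass (adjusted p = 0.365); scaled by library totals alone, where the median of all genes moved to 0.50, the value of Ier3 was 0.20.

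The calls of Ier2 and Myc were close to the threshold and did not hold in every fit that left out 1 library. The log2 change of Ier2 was not past the threshold without IRV replicate 3 (1.19, adjusted p = 0.0874), IRV replicate 4 (1.27, 0.0647), NV replicate 1 (1.34, 0.0573), NV replicate 3 (1.24, 0.0723) or NV replicate 4 (1.07, 0.0911). That of Myc was not past it without IRV replicate 3 (1.37, adjusted p = 0.125), IRV replicate 4 (1.70, 0.0504), NV replicate 1 (1.59, 0.0800) or NV replicate 2 (1.27, 0.0801). The calls of Jun, Junb, Jund, Egr1 and Atf3 held in each of the 16 fits that left out 1 library.

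Within the shallow libraries, which left IRV replicates 1 and 2 against the 4 NV libraries, 2 members passed: Jun at 1.35 ± 0.30 (SE, adjusted p = 0.00404) and Junb at 1.68 ± 0.41 (SE, adjusted p = 0.00843). The other 5 kept their sign, with log2 changes of 0.50 for Jund (adjusted p = 0.119), 1.91 for Egr1 (0.0699), 2.50 for Atf3 (0.118), 1.04 for Ier2 (0.308) and 1.29 for Myc (0.241). With the library set as a covariate in the fit of all 16 libraries, Jun (1.39 ± 0.31, SE, adjusted p = 0.00617) and Junb (1.73 ± 0.37, SE, adjusted p = 0.00475) passed and the other 5 again did not (adjusted p from 0.0591 for Atf3 to 0.263 for Myc). Each of the 7 values was smaller with the set in the fit than without it. Over all 13614 tested genes, 917 were called higher and 1022 lower within the shallow libraries. With the set covariate 1082 were higher and 834 lower, and in the fit of all 16 libraries without it 2171 and 1502.

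**Figure D2:**
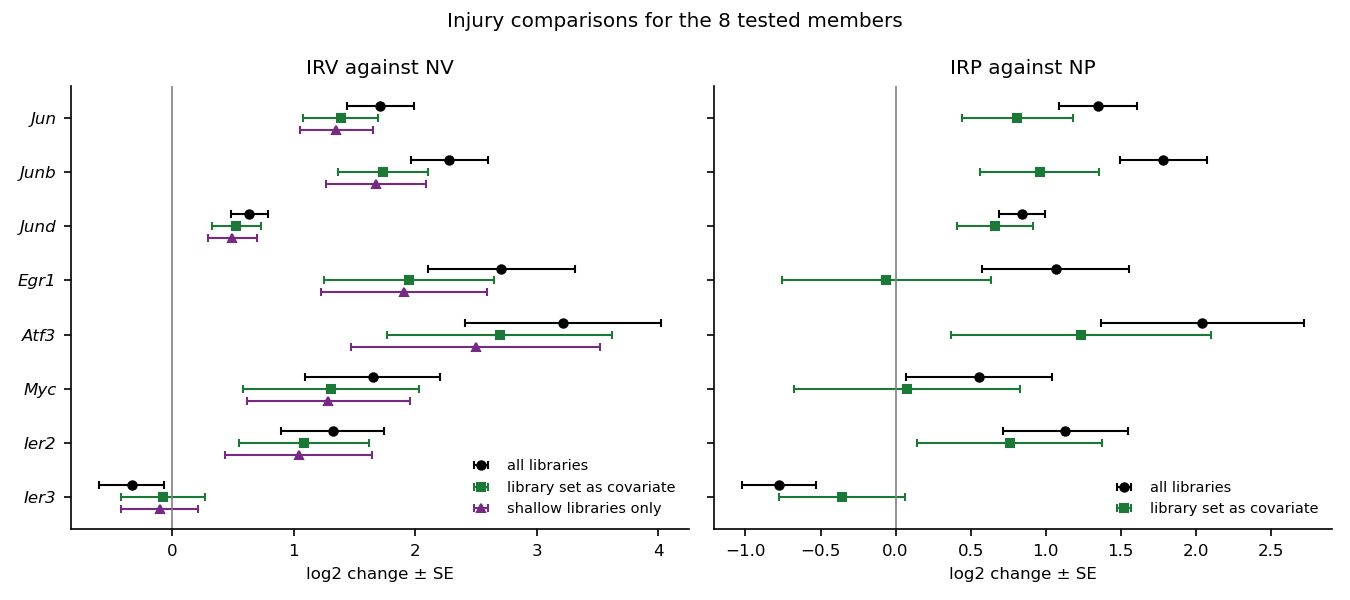
Log2 change (horizontal axis, ± SE) of the 8 tested members for IRV against NV (left) and IRP against NP (right). Circles are the fit of all 16 libraries, squares the fit with library set as a covariate and triangles the shallow libraries only; for IRV against NV all values of the 7 raised members are above 0, and for IRP against NP the covariate moves Egr1 to -0.062.

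With PJ34 in both groups, 5 of the 8 tested members were higher after injury, 1 was lower and 2 did not pass. Junb, Jun and Jund were 3.44-fold, 2.54-fold and 1.79-fold higher in IRP than in NP, and Atf3 and Ier2 also rose, while Ier3 fell. Egr1 and Myc did not pass. Over all tested genes, 19.6% were called higher in IRP than in NP (2673 of 13614) and 23.9% lower (3256), with a median log2 change of -0.01. Of the 3 members that the normal libraries alone would have passed, Jun and Jund were higher and Ier3 was lower. The libraries of IRP lay wholly above those of NP for 4 of the 10 members (Jun, Junb, Jund and Atf3), and for 19.7% of all tested genes.

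Jun had 80.9, 51.4, 68.6 and 56.5 CPM in IRP, against 31.7, 36.3, 18.0 and 14.5 CPM in NP. Its groups did not overlap, and the log2 change was 1.35 ± 0.26 (SE, adjusted p = 0.000707). Junb had 31.7, 19.1, 21.9 and 20.7 CPM in IRP, against 6.53, 8.71, 6.36 and 5.33 CPM in NP. The NP values of Junb were close together, the lowest IRP value was above all of them, and the log2 change was 1.78 ± 0.29 (SE, adjusted p = 0.000246). Jund had 59.2, 43.8, 55.0 and 44.4 CPM in IRP, against 26.1, 34.1, 24.4 and 27.4 CPM in NP. Its groups did not overlap either, with a log2 change of 0.84 ± 0.15 (SE, adjusted p = 0.000477). Atf3 had 5.18, 3.36, 5.44 and 3.89 CPM in IRP, against 0.933, 1.45, 1.06 and 0.761 CPM in NP, where 5 counts were found in all. All 4 IRP libraries of Atf3 were above all NP libraries, and the log2 change was 2.04 ± 0.68 (SE, adjusted p = 0.0213).

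Ier2 had 10.01, 5.47, 6.44 and 6.23 CPM in IRP, against 5.60, 1.45, 2.12 and 3.81 CPM in NP. The groups overlapped at NP replicate 1, and the log2 change was 1.13 ± 0.42 (SE, adjusted p = 0.0364). Ier3 had 10.01, 16.2, 15.2 and 9.03 CPM in IRP, against 25.2, 29.0, 17.0 and 14.5 CPM in NP. The groups overlapped at NP replicate 4, and the log2 change of Ier3 was -0.77 ± 0.25 (SE, adjusted p = 0.0173). That call was lost without the filter (-0.34, adjusted p = 0.263) and with library totals alone (-0.18, adjusted p = 0.488). The median of all genes stood at -1.08 without the filter and at 0.60 with library totals alone. The call of Ier3 was also lost without IRP replicate 4 (-0.64, adjusted p = 0.0544), NP replicate 1 (-0.69, 0.0546) or NP replicate 2 (-0.58, 0.0966).

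Egr1 had 46.5, 32.1, 30.1 and 29.0 CPM in IRP, against 11.2, 40.6, 6.36 and 4.57 CPM in NP. NP replicate 2 was above 3 of the 4 IRP libraries while the other 3 NP libraries were far below them, and the log2 change of 1.06 ± 0.49 (SE) did not pass (adjusted p = 0.0890). It was called with no filter (1.51, adjusted p = 0.00469) and with library totals alone (1.70, adjusted p = 0.00789). The median of all genes in those fits was -1.08 and 0.60, so the values of Egr1 are not on the scale of the main fit. Without NP replicate 2 the log2 change of Egr1 was 2.25 ± 0.49 (SE, adjusted p = 0.00238). NP replicate 2 was the highest NP library for 7 of the 10 members. Myc had 13.4, 4.24, 6.73 and 9.65 CPM in IRP, against 7.47, 2.90, 6.36 and 6.85 CPM in NP. The groups of Myc overlapped and its log2 change of 0.56 ± 0.49 (SE) did not pass (adjusted p = 0.377), but with library totals alone Myc was called (1.21, adjusted p = 0.0463).

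Fos had 40, 17, 25 and 25 counts in IRP, or 4.71, 3.00, 3.58 and 3.89 CPM, against 2, 7, 0 and 1 counts in NP, or 1.87, 5.08, 0 and 0.761 CPM. NP replicate 2 was above every IRP library. In the fit without the filter, where the median of all genes was -1.08, the log2 change of Fos was 1.31 ± 0.73 (SE, adjusted p = 0.139). Fosb had 3, 3, 2 and 2 counts in IRP against 1, 1, 0 and 0 in NP. The ratio of the summed levels of Fosb was 0.854, with a counting interval of 0.182 to 8.02, so that no difference was detectable at this depth.

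With the library set as a covariate, which for IRP against NP can be estimated only through the IRV group, 0 of the 8 members passed. Over all 13614 tested genes, 343 were called higher and 105 lower with the covariate, against 2673 and 3256 without it. The log2 changes were then 0.81 for Jun (adjusted p = 0.259), 0.96 for Junb (0.208), 0.66 for Jund (0.169), 1.23 for Atf3 (0.498), 0.76 for Ier2 (0.576), -0.36 for Ier3 (0.719), 0.07 for Myc (0.981) and -0.062 for Egr1 (0.985). Atf3 was also no longer called without IRP replicate 1 (1.89, adjusted p = 0.0557), IRP replicate 3 (1.93, 0.0509), NP replicate 1 (1.99, 0.0504) or NP replicate 4 (1.91, 0.0597). For Ier2 the adjusted p ran from 0.0171 to 0.161 over the 16 fits that left out 1 library, and 7 of those fits did not call it.

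The comparison of PJ34 with vehicle in injured kidneys asked whether the inhibitor altered the members after ischemia reperfusion. None of the 8 tested members was called, as was true of 0 of 13614 genes, or 0%, in the same test. At an unadjusted p under 0.05 there were 0 members and 1831 genes. DESeq2 called 5 genes higher and 1277 lower in IRP than in IRV, limma-voom called 0, and neither called a member. The 95% intervals of the log2 difference, IRP minus IRV, were -0.45 to 0.49 for Jun around 0.02, -0.42 to 0.51 for Junb around 0.04, and -0.19 to 0.38 for Jund around 0.10. Those of Egr1 (-0.98 to 0.72 around -0.13), Atf3 (-1.01 to 1.18 around 0.09), Myc (-1.0 to 0.77 around -0.11), Ier2 (-0.90 to 0.53 around -0.19) and Ier3 (-0.58 to 0.42 around -0.08) were wider. A 2-fold difference in either direction lay outside these intervals for 7 of the 8 members, narrowly for Egr1 and Myc, and inside that of Atf3. The intervals come from the fit without library set, although the set divides the IRV group.

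Group means were close, but IRP is all deep while the IRV mean averages deep and shallow libraries. For Egr1 these were at 48.1 CPM (deep IRV) and 23.1 CPM (shallow IRV) on average. Jun averaged 64.3 ± 13.2 CPM in IRP and 62.1 ± 13.8 CPM in IRV, Junb 23.3 ± 5.68 CPM in IRP and 21.4 ± 7.43 CPM in IRV, and Egr1 34.4 ± 8.18 CPM in IRP and 35.6 ± 15.4 CPM in IRV (SD, n = 4 each). The libraries of IRP and IRV overlapped for all 10 members. Among the deep libraries only, 4 IRP against IRV replicates 3 and 4, 0 members were called and the log2 differences were -0.19 for Jun, -0.23 for Junb, -0.20 for Atf3, -0.48 ± 0.19 (SE) for Egr1 and 0.09 for Ier3, each with an adjusted p of 1. The signs of Jun, Junb, Atf3 and Ier3 were thus opposite to those in all libraries. Fos was -0.08 ± 0.61 and Fosb -1.35 ± 0.95 on the log2 scale in the fit without the filter (SE, IRP minus IRV), and neither passed. The median of all genes was -0.30 in that fit.

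In normal kidneys, 0 of the 8 members and 0 of 13614 genes, or 0%, were called between NP and NV. At an unadjusted p under 0.05 there were 500 genes and 1 member, Egr1, at 1.52 ± 0.70 (SE, 95% interval 0.03 to 3.00, adjusted p = 1.00). DESeq2 called 3 genes higher and 1 lower, limma-voom called 0, and no member was among them. Egr1 averaged 15.7 ± 16.9 CPM in NP and 5.89 ± 5.12 CPM in NV (SD, n = 4 each), and its NP spread came from replicate 2: without it the log2 difference was 0.34. Of the other members, 6 had positive values, from 0.01 for Ier2 to 1.26 for Atf3, and Jund was at -0.11. Atf3 had 5 counts in NP and 2 in NV, a ratio of 2.52 with a counting interval of 0.413 to 26.5. Myc had an interval of -0.33 to 2.30 around 0.98, and Jun of -0.27 to 1.05 around 0.39.

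Whether the injury change differed with PJ34 was tested as an interaction, IRP minus NP less IRV minus NV. It was called for 0 of 8 members and for 0 of 13614 genes, or 0%, with 1549 genes and 0 members at an unadjusted p under 0.05. DESeq2 called 1 gene higher and 21 lower, limma-voom called 0, and no member was called by either. Egr1 had the largest value, at -1.65 ± 0.82 on the log2 scale (SE, unadjusted p = 0.0596, adjusted p = 0.467), and without NP replicate 2 it was -0.46. The others ran from -1.17 ± 1.13 (SE) for Atf3 to 0.21 ± 0.22 (SE) for Jund. The change of Egr1 and Myc that passed in IRV against NV and not in IRP against NP was therefore not shown to differ between the treatments.

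**Figure D3:**
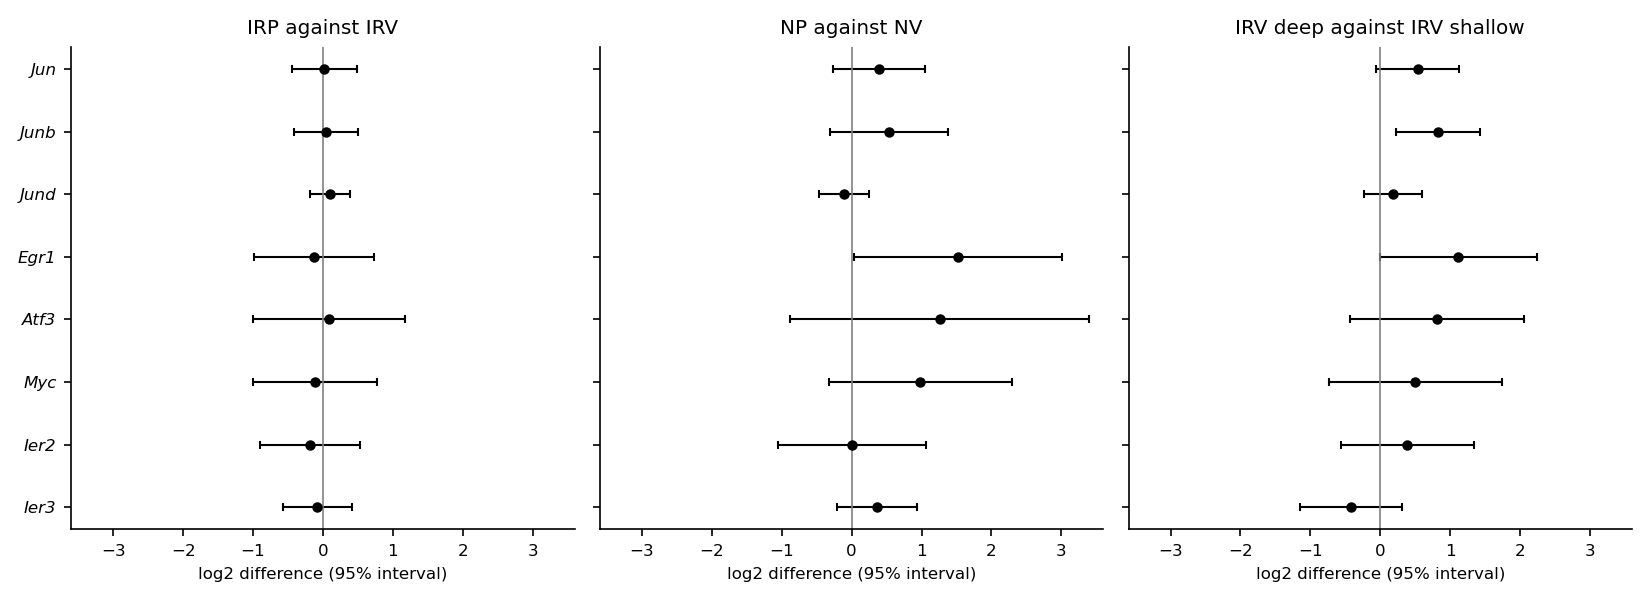
Log2 difference with its 95% interval (horizontal axis) for the 8 tested members in IRP against IRV, NP against NV, and deep against shallow IRV libraries. The interval of Jun for IRP against IRV is -0.45 to 0.49, and Junb lies wholly above 0 among the IRV libraries, at 0.82, without passing the adjusted threshold.

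Within the IRV group, the libraries divided into deep (replicates 3 and 4) and shallow (replicates 1 and 2). Of the 8 tested members, 0 were called between them, while 128 genes (0.94% of those tested) were called higher and 1768 lower in the deep libraries. Both deep libraries were above both shallow ones for 7 of the 10 members, namely Jun, Junb, Jund, Egr1, Atf3, Ier2 and Fosb, and below them for Ier3. Over all tested genes, 27.2% had both deep libraries above both shallow ones. Junb had 30.04 and 25.1 CPM in the deep libraries, against 14.0 and 16.6 CPM in the shallow libraries, a log2 difference of 0.82 ± 0.29 (SE, unadjusted p = 0.00962, adjusted p = 0.0645). Without IRP replicate 1 or IRP replicate 2, which enter this fit only through the shared estimate of spread and the scaling, Junb was called (0.77, adjusted p = 0.0365, and 0.82, adjusted p = 0.0497). Egr1 had 51.2 and 45.0 CPM in the deep, against 29.1 and 17.2 CPM in the shallow libraries, or 1.12 ± 0.54 (SE, adjusted p = 0.225). Jun had 78.5 and 68.4 CPM in the deep, against 51.1 and 50.4 CPM in the shallow libraries, or 0.53 ± 0.28 (SE, adjusted p = 0.287).

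Fosb had 24 counts in the deep IRV libraries and 0 in the shallow ones. Setting the shallow libraries at a floor of 3 counts over the group gives a ratio of 1.41, which leaves out counting error in the 24 counts. The counting intervals overlapped, at 1.01 to 2.34 CPM in the deep and 0 to 1.37 CPM in the shallow IRV libraries. In the fit without the filter, the difference of Fosb between them did not pass (adjusted p = 0.0597). Fos had 4.84 and 3.99 CPM in the deep IRV libraries, against 8.02 and 1.18 CPM in the shallow ones, from 35 and 32 counts against 8 and 2. The shallow values of Fos lay on both sides of the deep ones. Ier3 had 12.5 and 11.2 CPM in the deep, against 14.0 and 17.2 CPM in the shallow libraries, or -0.42 ± 0.35 (SE, adjusted p = 0.539). With library totals alone, which moved the median of all genes to 0.42, Junb (1.20), Egr1 (1.48) and Jun (0.91) were called, and with no filter the same 3 members were. The median of all genes without the filter was -0.42. Markers of injured tubules summed to 3713 to 3750 CPM in the deep IRV libraries, against 2821 to 3189 CPM in the shallow ones. Macrophage markers summed to 672 to 858 CPM in the deep IRV libraries, against 499 to 593 CPM in the shallow ones. Podocyte markers (727 to 892 against 588 to 655 CPM) and endothelial markers (281 to 316 against 231 to 250 CPM) were also higher in the deep libraries. Neutrophil markers were lower there (5.11 to 9.27 against 20.1 to 27.1 CPM). Their sum divided by library set in the other groups as well. It was 3.36 to 11.1 CPM in IRP, which is all deep. In NP and NV, which are all shallow, it was 12.7 to 29.7 CPM and 17.3 to 28.8 CPM. Of the 5 neutrophil markers, 2 passed the filter on low counts. The ranges overlapped for fibroblast, lymphocyte, erythrocyte, proximal tubule, collecting duct, and loop of Henle and distal tubule markers. The part of these markers in the difference between the IRV libraries was not tested.

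Within 3 of the 4 groups, 1 library was the highest for most members. In IRP, replicate 1 was the highest library for 7 of the 10 members and for 32.3% of all tested genes, and replicate 2 was the lowest for 7 members and for 35.3% of genes. In IRV, replicate 3 was highest for 7 members and for 26.5% of genes, and replicate 2 lowest for 6 members and for 24.7% of genes. NP replicate 2 was highest for 7 members and for 29.3% of genes. In NV no library was highest for more than 4 members or lowest for more than 4. Ier3 did not follow this order in IRP, where its replicate 2 was the highest at 16.2 CPM. In profiles of log2 CPM scaled over the 16 libraries, the nearest pairs of members were Atf3 and Junb, with a root mean square difference of 0.41 SD, and Egr1 and Junb, with 0.43 SD. Ier3 was far from the Jun genes, at 1.61 SD from Jun and 1.70 SD from Junb.

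Outside the members, Il16 had a profile close to that of Jun (0.26 SD). Nearest to Egr1 were 2410002F23Rik (0.33 SD) and Hdac5 (0.37 SD), and nearest to Atf3 were Laptm5 and Dysf (both 0.29 SD). Rsad2 (0.40 SD) and Dock6 (0.43 SD) were nearest to Myc. These distances were taken over all 16 libraries, which share the difference between injured and normal kidneys and that between deep and shallow libraries.

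Levels of different members were compared per length of their longest coding transcript in the annotation, as CPM per kilobase. In IRV, Jund was the highest at 28.1 ± 2.69, followed by Jun at 19.5 ± 4.31, Ier3 at 12.1 ± 2.28, Junb at 11.8 ± 4.11, Egr1 at 7.94 ± 3.44, Ier2 at 5.20 ± 0.914, Myc at 3.91 ± 1.43, Fos at 2.14 ± 1.33, Atf3 at 2.00 ± 0.770 and Fosb at 0.211 ± 0.265 (SD, n = 4). Neighbours in this order from Ier3 down to Myc differed by less than the larger SD of each pair, as did Fos and Atf3. The order in IRP was the same at its head, with Jund at 30.3 ± 4.63 and Jun at 20.2 ± 4.14, while Junb at 12.9 ± 3.14 and Ier3 at 11.2 ± 3.20 changed places within their spread (SD, n = 4). In NP, Ier3 at 18.9 ± 6.05 and Jund at 16.8 ± 2.55 led, and were not separated beyond their spread, ahead of Jun at 7.88 ± 3.30 (SD, n = 4). In NV, Jund at 18.2 ± 3.32 and Ier3 at 14.9 ± 2.77 led, about 1 SD apart, ahead of Jun at 6.06 ± 1.86, with Atf3 at 0.210 ± 0.420 and Fosb at 0.113 ± 0.131 at the end (SD, n = 4).

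Other genes of the same response were described from lists that exclude the members. Over all tested genes, 15.9% were called higher and 11% lower in IRV against NV. In IRP against NP, 19.6% were called higher and 23.9% lower. Whether genes of these lists passed the filter only with the injured libraries was not examined. Of 52 further immediate early genes, 41 were tested; 23 rose and 2 fell in IRV against NV, with a median log2 change of 0.85, and 20 rose and 2 fell in IRP against NP, with a median of 0.75. The 4 with the smallest p in IRV against NV were Socs3, a feedback inhibitor of cytokine signalling (3.21 ± 0.44), Rhob, a small GTPase (2.02 ± 0.30), Klf6 (1.58 ± 0.24) and Zfp36l1, which promotes mRNA decay (1.07 ± 0.16; log2 ± SE). Their values in IRP against NP were 2.72 ± 0.41, 1.78 ± 0.28, 2.04 ± 0.25 and 1.13 ± 0.16 in the same order. Nr4a1 (0.54, adjusted p = 0.322), Dusp1 (0.57, adjusted p = 0.131) and Egr2 (1.60, adjusted p = 0.0769), which are induced together with Fos and Egr1, did not pass in IRV against NV and were chosen after their values were seen. Egr3, Egr4, Nr4a2, Nr4a3, Dusp2, Dusp5, Csrnp1, Plk3, Ptgs2, Arc and Areg did not pass the filter on low counts.

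Among 18 tested AP-1 and ATF partners, 4 rose and 1 fell in IRV against NV, with a median of 0.21. In IRP against NP, 6 rose and 2 fell, with a median of 0.23. The shares of all tested genes were 15.9% higher and 11% lower in IRV against NV, and 19.6% and 23.9% in IRP against NP. Fosl2, a Fos family subunit, rose by 1.92 ± 0.26 in IRV against NV and by 1.99 ± 0.25 in IRP against NP (log2 ± SE), Atf5 by 1.35 ± 0.36 and 1.01 ± 0.33, and Atf7 by 0.52 ± 0.16 and 0.50 ± 0.15. Maf was lower, at -0.58 ± 0.16 and -0.64 ± 0.16. Among 36 kinases and upstream factors, 12 rose and 0 fell in IRV against NV (median 0.19) and 12 rose and 3 fell in IRP against NP (median 0.09). Map3k1, which acts above the Jun kinases, rose by 1.78 ± 0.15 in IRV against NV and by 1.23 ± 0.14 in IRP against NP, and Mapk7, Rps6ka1 and Rps6ka3 rose in both comparisons.

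Genes known as AP-1 targets had the highest median change of the 7 lists in both injury comparisons. The lists were chosen with earlier results of these data known, so this rank is only a description. The list also shares Krt8 and Krt18 with the injured tubule markers. Of all tested genes, 15.9% were called higher and 11% lower in IRV against NV, and 19.6% higher and 23.9% lower in IRP against NP. The calls of the AP-1 targets are set beside these shares. Of 33 AP-1 targets, 23 were tested. In IRV against NV, 17 rose and 1 fell, with a median log2 change of 1.68. In IRP against NP, 19 rose and 0 fell, with a median of 1.94. The 4 named were the matrix proteases Mmp14 (3.49 ± 0.35 in IRV against NV) and Mmp2 (3.08 ± 0.38), the membrane-binding protein Anxa2 (2.53 ± 0.24) and the intermediate filament protein Vim (2.14 ± 0.22; log2 ± SE). Mmp14, Mmp2 and Vim are made by fibroblasts as well. Summed fibroblast markers were 891 to 2360 CPM in IRP, 1254 to 1991 CPM in IRV, 252 to 363 CPM in NP and 139 to 325 CPM in NV, with all 6 markers higher in both injury comparisons. Macrophage markers, with all 7 higher in both, summed to 385 to 991 CPM in IRP, 499 to 858 CPM in IRV, 58.8 to 119 CPM in NP and 63.1 to 91.7 CPM in NV. Of the injured tubule markers, 8 of 8 were higher in IRV against NV and 7 of 8 in IRP against NP, and their sums were 2256 to 4126 CPM in IRP, 2821 to 3750 CPM in IRV, 698 to 760 CPM in NP and 637 to 831 CPM in NV. No marker of these 3 lists was at 0 in any group, and their part in the changes of the members was not tested.

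Known targets of MYC are set beside the shares of all tested genes, of which 15.9% were called higher and 11% lower in IRV against NV, and 19.6% higher and 23.9% lower in IRP against NP. Of 31 tested MYC targets, 5 rose and 6 fell in IRV against NV (median 0.17), and 6 rose and 5 fell in IRP against NP (median 0.11). Ccnd2, a G1 cyclin, rose by 1.04 ± 0.22, and Tfrc, the transferrin receptor, fell by 1.14 ± 0.22 in IRV against NV, as did the mitochondrial chaperones Hspe1 (-0.81 ± 0.16) and Hspd1 (-0.73 ± 0.14; log2 ± SE). Of 19 tested MYC network genes, 7 rose and 1 fell in IRV against NV, and 6 rose and 1 fell in IRP against NP, with Mga, Mxd4, Mycbp2 and Mlxip named among those that rose. Of 26 tested heat shock and unfolded protein genes, 3 rose and 3 fell in IRV against NV (median -0.03) and 5 rose and 4 fell in IRP against NP (median -0.05). The small heat shock proteins Hspb1 (3.03 ± 0.49) and Hspb8 (1.99 ± 0.29) were higher, and the chaperones Hsph1 (-0.94 ± 0.23) and Dnaja1 (-0.68 ± 0.13) lower, in IRV against NV (log2 ± SE).

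In IRP against IRV, in NP against NV and for the interaction, 0 genes of these 7 lists were called. Between deep and shallow IRV libraries, 4 of 41 tested immediate early genes were higher and 0 lower. They were Klf6 (0.75), Ccn2 (1.06), Per1 (1.22) and Trib1 (0.84), which were named after their values were seen. Over all 13614 tested genes, 128 (0.94%) were higher and 1768 lower. Calls higher and lower were 1 and 0 for AP-1 and ATF partners and 0 and 2 for kinases and upstream factors. They were 1 and 1 for the MYC network, 2 and 1 for heat shock genes, and 0 and 0 for AP-1 targets and MYC targets. The set covariate lowered the number of calls over the whole table as well. Of 13614 tested genes, 1082 were then higher and 834 lower in IRV against NV, and 343 and 105 in IRP against NP. With the library set as a covariate, the calls in IRV against NV were 14 higher and 3 lower for immediate early genes, 1 and 0 for AP-1 and ATF partners, 5 and 0 for kinases and upstream factors, 12 and 1 for AP-1 targets, 3 and 0 for the MYC network, 0 and 4 for MYC targets, and 2 and 4 for heat shock genes. In IRP against NP the covariate left 2 higher and 1 lower for immediate early genes, 2 and 0 for AP-1 and ATF partners, 1 and 0 for kinases and upstream factors, 6 and 0 for AP-1 targets, 0 and 0 for the MYC network and for MYC targets, and 0 and 4 for heat shock genes.

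**Figure D4:**
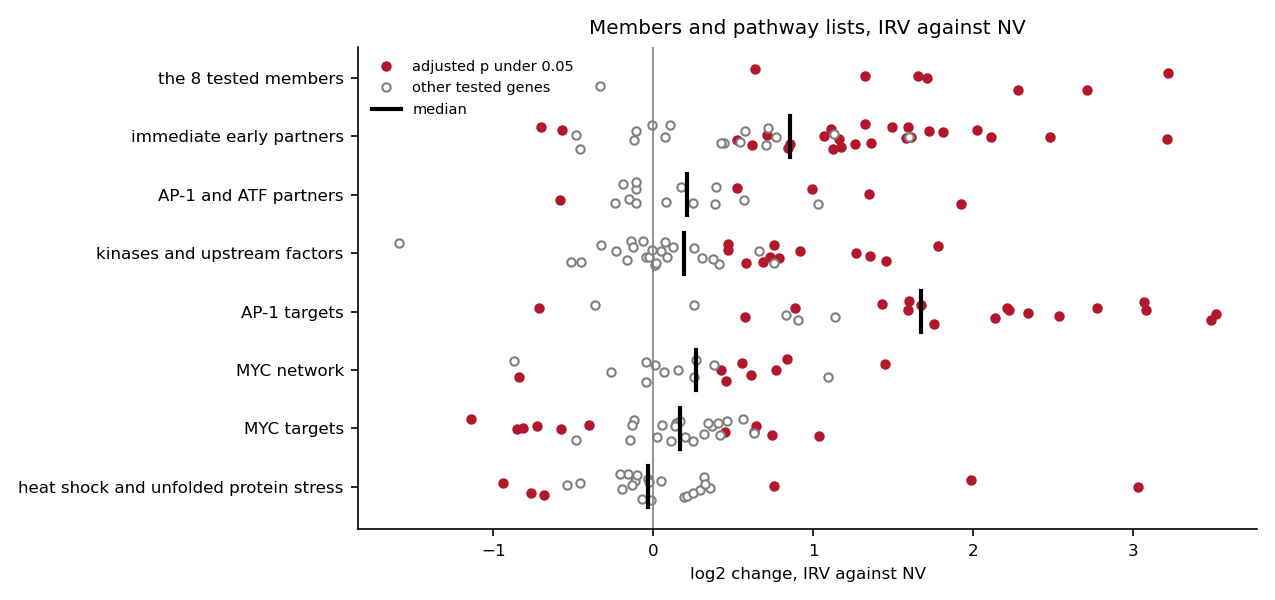
Log2 change in IRV against NV (horizontal axis) of the 8 tested members and the tested genes of 7 lists, each point 1 gene and each bar a list's median (none is drawn for the members). Filled points passed the adjusted threshold of 0.05; the list medians are 1.68 for AP-1 targets, 0.85 for immediate early partners and -0.03 for heat shock genes.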

How the data were processed

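The authors deposited expected counts per gene for 16 libraries, as whole numbers and not normalised, so that rounding changed 0 of them. Per the submitters' processing notes, the build was GRCm39 and the listed tools were Salmon 1.3.0, DESeq2 1.30.1, Trim Galore 0.6.6 and FastQC 0.11.3, and per the labels' protocols the library kit was directional. The sources used here do not say whether molecular identifiers were counted. Reads that fit several transcripts are shared out by Salmon, which makes counts of close paralogs estimates. Symbols were matched by Ensembl identifier without its version for 40276 of 40472 identifiers; lengths and promoters came from GRCm38 annotations.

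Counts were filtered with filterByExpr (minimum count 10), scaled by TMM and tested with the quasi-likelihood test of edgeR 4.0.16 (R 4.3.3, limma 3.58.1) in 1 fit of all 16 libraries with group as the only term. IRV was divided in a fit of 5 groups by a total above or below 3000000 counts. The script was tested on simulated data. The members, the lists and the division by depth were chosen with earlier results of these data known. Named were all 10 members, the 4 tested genes of each pathway list with the smallest p in IRV against NV, and the 2 nearest profiles to Jun, Egr1, Atf3 and Myc, of which 1 is not reported here. Profiles used a prior count of 2. Alternatives were DESeq2 1.42.0, limma-voom, other scalings, no filter, thinning to the shallowest library, a set covariate, a replicate block, only the groups compared, and leaving out each library. Libraries with the same replicate number did not deviate together (24 pairs, r from -0.23 to 0.26), so the numbers were not taken to pair samples.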

Additional observations from a re-analysis of the deposited data

Results flagged for a closer look

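Over the 40 sets of 4 libraries that 10 members in 4 groups give, 2 held a library far from the other 3. The rule flags about 2 of 40 (1 in 20) for independent normal values. Some sets here hold only a few counts, and the sets share libraries, so that rate is a rough guide. Jun in NV replicate 3 was at 10.5 CPM, below the other 3 NV libraries at 21.1 to 23.2 CPM. Atf3 in NV replicate 1 was at 1.67 CPM, from 2 counts, while the other 3 NV libraries held 0 counts.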

How the results depend on the processing

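For IRV against NV, where 7 members were called, 2 were called with the library set as a covariate, 2 in the shallow libraries only and 4 with only the groups compared. For IRP against NP, where 6 were called, 0 were called with the set covariate and 3 after thinning. Over all tested genes, the set covariate gave 1082 higher and 834 lower in IRV against NV, and 343 and 105 in IRP against NP. Between deep and shallow IRV libraries, where 0 were called, 3 were called with library totals alone, 3 with no filter and 1 with only the groups compared; a set covariate could not be fitted there. Leaving out 1 library at a time, the number of called members ranged from 5 to 7 (IRV against NV), from 4 to 6 (IRP against NP) and from 0 to 1 (deep against shallow IRV), and was 0 in the interaction and in both comparisons of PJ34 with vehicle. The causes were not tested. DESeq2 size factors changed no number of called members.

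Values that changed sign were all uncalled. With library totals alone, Ier3 was at 0.20 in IRV against NV. With the set covariate, Egr1 was at -0.062 in IRP against NP, and in IRP against IRV Jun was at -0.19, Junb at -0.23, Atf3 at -0.20 and Ier3 at 0.084. In IRP against IRV, the deep libraries only gave Jun -0.19, Junb -0.23, Atf3 -0.20 and Ier3 0.086, thinning gave Jund -0.042, Egr1 0.065 and Atf3 -0.19, limma-voom gave Jun -0.018, Junb -0.079 and Atf3 -0.15, and no filter gave Ier3 0.034. In NP against NV, Ier2 was at -0.011 after thinning, -0.0031 with only the groups compared and -0.012 with limma-voom. Ier3 was at 0.058 between deep and shallow IRV libraries after thinning. Over the fits that left out 1 library, IRP against IRV ranged from -0.081 to 0.24 for Atf3, -0.34 to 0.072 for Egr1, -0.22 to 0.047 for Ier3, -0.11 to 0.12 for Jun, -0.13 to 0.22 for Junb and -0.42 to 0.11 for Myc. Ier2 ranged from -0.37 to 0.38 in NP against NV and from -0.56 to 0.18 in the interaction, and Myc from -0.14 to 1.12 between deep and shallow IRV libraries.

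With the replicate block, 7, 6, 0, 0, 0 and 0 members were called in the order of injury with vehicle, injury with PJ34, PJ34 in injured kidneys, PJ34 in normal kidneys, the interaction and the depth of the IRV libraries, as without it; Jun was then at -0.014 in IRP against IRV and Ier2 at -0.026 in NP against NV. The block gave 2081 genes higher and 1588 lower in IRV against NV, and 2566 higher and 3234 lower in IRP against NP. Depth limits the members with few counts: the shallow libraries held 0 to 8 counts each of Fos.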
